A study of Mus musculus with 24 samples.

Results

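Il3, Il4, Il5, Il13 and Csf2 encode the cytokines interleukin (IL)-3, IL-4, IL-5, IL-13 and granulocyte-macrophage colony-stimulating factor (GM-CSF). These 5 genes were chosen by name, out of 35492 gene symbols with a value in the files, and all 5 were found. RNA had been sequenced from naive CD4 T cells of C57BL/6 mice, sorted as CD4+ CD62L+ cells from spleen and lymph nodes and placed on antibodies to CD3 and CD28, which mimic antigen and costimulation. Before polarization every culture was transfected for 6 hours with a dinucleotide at 80 µg/mL per the labels (the study's methods give the dose in another unit of volume, and which is right is not settled here), either cGAMP, the messenger that activates the adaptor STING, or a control dinucleotide. The medium was then replaced by TH1 medium (IL-12 and an antibody to IL-4) or TH9 medium (TGF-β, IL-4 and an antibody to IFN-γ), and cells were collected after 16 or 48 hours of polarization. The 24 libraries carry 8 labels of 3 libraries each, TH1 or TH9, 16h or 48h, control or cGAMP, and the study describes the 3 as biological replicates from separate experiments. IL-4 was thus supplied as protein in the cultures labelled TH9 and neutralized in those labelled TH1, so that an Il4 transcript level is not a measure of the IL-4 the cells met. In such bulk cultures, fewer cells making a transcript and less transcript per cell cannot be told apart.

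IL-4, IL-5 and IL-13 are the signature cytokines of TH2 cells. Their genes lie together in a cytokine locus where GATA3 and STAT6 act on shared regulatory elements, and T-cell receptor signals reach them through NFAT. IL-3 and GM-CSF are made by activated T cells of many kinds and, with IL-5, signal through receptors that share a common beta chain to drive the growth of basophils, mast cells, eosinophils, granulocytes and macrophages. TH9 cells, defined by IL-9, arise under IL-4 together with TGF-β and thus share part of the TH2 inducing signal.

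All 5 genes lie on mouse chromosome 11 (GENCODE M21 gene models, GRCm38). Il4 spans chr11:53602982-53618669 on the minus strand, Il13 chr11:53631324-53634702 on the minus strand, Il5 chr11:53720794-53725106 on the plus strand, Csf2 chr11:54247271-54249667 on the minus strand and Il3 chr11:54265303-54267277 on the minus strand. They form a TH2 cluster, in which the starts of Il4 and Il13 are 16.0 kb apart and those of Il4 and Il5 102 kb apart, and a second pair, Csf2 and Il3, 17.6 kb apart. The start of Csf2 lies 529 kb from that of Il5. The 250 bases before the start of each gene in RefSeq (GRCm38.p6) are printed for the neighbouring pairs Il4 and Il13, and Csf2 and Il3, because these are the genes that the results below set side by side. Capitals mark GGAAA, the core bound by NFAT, or its reverse complement TTTCC. The windows are chr11:53618666-53618915 (Il4), chr11:53634703-53634952 (Il13), chr11:54249900-54250149 (Csf2) and chr11:54267280-54267529 (Il3), all read 5′ to 3′ on the minus strand.
Il4: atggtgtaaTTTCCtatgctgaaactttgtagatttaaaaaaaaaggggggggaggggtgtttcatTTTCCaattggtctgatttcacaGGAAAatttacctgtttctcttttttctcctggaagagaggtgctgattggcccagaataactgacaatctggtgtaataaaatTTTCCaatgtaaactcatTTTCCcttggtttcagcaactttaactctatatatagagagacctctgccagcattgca
Il13: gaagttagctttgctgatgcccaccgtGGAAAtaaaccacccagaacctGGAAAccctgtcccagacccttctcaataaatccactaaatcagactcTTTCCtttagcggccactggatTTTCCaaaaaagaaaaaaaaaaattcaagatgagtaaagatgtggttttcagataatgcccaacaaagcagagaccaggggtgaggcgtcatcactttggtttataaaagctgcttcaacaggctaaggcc
Csf2: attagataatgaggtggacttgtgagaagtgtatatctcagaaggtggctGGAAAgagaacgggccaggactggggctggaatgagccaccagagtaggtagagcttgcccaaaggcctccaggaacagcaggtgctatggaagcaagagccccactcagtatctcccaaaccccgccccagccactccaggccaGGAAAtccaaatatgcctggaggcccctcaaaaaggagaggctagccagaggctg
Il3: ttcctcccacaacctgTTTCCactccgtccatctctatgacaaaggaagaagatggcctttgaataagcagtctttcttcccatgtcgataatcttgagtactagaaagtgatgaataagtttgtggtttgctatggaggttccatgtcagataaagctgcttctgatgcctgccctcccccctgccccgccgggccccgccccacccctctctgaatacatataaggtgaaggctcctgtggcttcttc

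The GGAAA core was matched 5 times before Il4, 4 times before Il13, 2 times each before Il5 and Csf2, and 1 time before Il3. At least 1 match was present in 55.6% of the 32851 RefSeq windows of the same length, and 3 or more in 6.39%. In the Il4 window the match nearest to the start began at position -59, counted from the start, and in the Il13 window at -131. No window of a member held the AP-1 letters TGANTCA (6.75% of all windows) or the STAT5 letters TTCNNNGAA (7.02%), and the STAT6 motif (TTC and GAA parted by 4 bases) was found only before Il4, 1 time (5.85%), where they overlapped a GGAAA match. GATA was matched 0 times in the printed Il4 window, 1 time each before Il13 and Il5, 2 times before Il3 and 3 times before Csf2, on either strand (53.6% of all windows). RefSeq lists a further Il4 start inside the gene, whose window held no GGAAA but 3 GATA matches. The RefSeq start of Csf2 lies upstream of the GENCODE start, so its window does not adjoin the transcript that GENCODE annotates. These matches describe letters in short windows, and binding was not measured.

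The libraries were kept under the labels they were deposited with, but genes that define the subsets went against those labels in part. Tbx21 encodes T-bet, the TH1 factor, and Il9 the cytokine of TH9 cells. Il9 was above Tbx21 in 12 libraries, of which 8 were labelled TH9 and 4 TH1. Tbx21 was above Il9 in the other 12, of which 8 were labelled TH1 and 4 TH9. In each of the 8 labels 1 library of 3 thus carried the marker of the other subset. Taken in the order of deposited label and replicate, libraries with Tbx21 above Il9 and libraries with Il9 above Tbx21 alternated in pairs throughout. The labels do not change in such pairs. In the same order, taken as 3 runs of 8 libraries, the last of each run had the run's most Il9, at 1136, 496 and 298 TPM. The library 2 places before it had the run's most Ifng, the gene of IFN-γ, at 434, 254 and 152 TPM. Neither set of 3 carried a single subset, time or cGAMP label. The libraries were not regrouped by this order, and whether it follows the cultures was not tested. Every test by label below compares libraries as labelled, and was repeated without these 8 libraries, which leaves 2 per label. This repeat was added after the data were seen, and the markers it used check the subset label only, not the labels for cGAMP and time. Whether those labels hold was not tested, so a difference by label below may not be a difference by cGAMP or time. Sequencing depth is unknown, since the deposited values are TPM, transcript abundances scaled by transcript length and to a fixed total, which keep none. Between 8923 and 14068 symbols per library reached 1 TPM, while the predicted gene Gm10800 alone took 0.0933% to 39.9% of a library's TPM and the mitochondrial leucyl-tRNA synthetase gene Lars2 0.333% to 33.8%. The T cell identity genes, among them Lck (19.0 to 260 TPM) and Cd4 (17.1 to 180 TPM), were at or above 1 TPM in all 24 libraries.

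Il3 was the most abundant transcript of the 5 in 22 of 24 libraries, ranging from 0 to 48.5 TPM with a median of 9.48 TPM. It reached 1 TPM in 22 libraries and was above Csf2 in 23. At 16 hours the 3 libraries labelled TH1 control held 24.3, 25.5 and 2.58 TPM of Il3, those labelled TH1 cGAMP 4.26, 4.83 and 31.7 TPM, those labelled TH9 control 16.1, 36.8 and 26.6 TPM and those labelled TH9 cGAMP 48.5, 4.99 and 16.7 TPM. All 12 were above 2 TPM, and within 3 of these 4 labels the highest library was several times the lowest. At 48 hours the libraries labelled TH1 control held 1.43, 11 and 1.99 TPM, those labelled TH1 cGAMP 23.7, 9.10 and 9.86 TPM, those labelled TH9 control 1.13, 0.990 and 2.59 TPM and those labelled TH9 cGAMP 7.35, 15.1 and 0 TPM. The single library listed at 0, TH9 48h cGAMP 3, was also 1 of the 2 in which Il4 was the most abundant member. Ordered by the median of each label, Il3 ran from TH9 16h control (26.6 TPM) to TH9 48h control (1.13 TPM), and in all 7 pairs of neighbouring labels the ranges of the libraries overlapped.

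Csf2 was lower, with a median of 1.85 TPM, and reached 1 TPM in 13 libraries. At 16 hours it was at 4.28, 6.89 and 0.489 TPM under the label TH1 control, 0.609, 2.16 and 2.97 TPM under TH1 cGAMP, 2.78, 15.5 and 3.55 TPM under TH9 control and 13.9, 0 and 3.41 TPM under TH9 cGAMP. At 48 hours it was at 0.342, 0.605 and 0.711 TPM under TH1 control, 5.77, 0.724 and 3.53 TPM under TH1 cGAMP, 0.269, 0.531 and 1.54 TPM under TH9 control and 0.986, 0.802 and 2.67 TPM under TH9 cGAMP. The 3 TH1 48h cGAMP libraries all lay above the 3 TH1 48h control libraries, though the lowest of the former and the highest of the latter differed by little. Csf2 and Il3 were highest in the same 2 libraries, TH9 16h control 2 and TH9 16h cGAMP 1.

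Il4 and Il13 were near 0 in most libraries and high in a few. Il4 reached 1 TPM in 8 libraries and was listed at 0 in 8, with a median of 0.584 TPM and a maximum of 55.5 TPM in TH9 16h control 2. Il13, which shares receptor chains with IL-4, reached 1 TPM in 6 and was listed at 0 in 9, with a median of 0.197 TPM and a maximum of 47.3 TPM in the same library. An exact 0 in such a table can be a low count that left no estimate, and is given here only as listed. Where Il4 and Il13 were both at or above 1 TPM, in 5 libraries, their levels were 3.57 and 3.32 TPM in TH9 16h control 1, 55.5 and 47.3 TPM in TH9 16h control 2, 17.5 and 20.9 TPM in TH1 48h cGAMP 1, 5.23 and 5.75 TPM in TH9 48h cGAMP 2, and 6.72 and 1.06 TPM in TH9 48h cGAMP 3. The ratio of Il4 to Il13 lay between 0.839 and 1.17 in the first 4 of these and was 6.32 in TH9 48h cGAMP 3. The remaining library with Il13 at 1 TPM, TH9 16h cGAMP 3, held 1.02 TPM of Il13 and was listed at 0 for Il4. Il4 alone was at 1.25 TPM in TH1 16h control 2, 1.78 TPM in TH9 16h cGAMP 1 and 1.10 TPM in TH1 48h control 2, all 3 libraries with more Tbx21 than Il9.

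Il5, the eosinophil growth and survival factor, was the scarcest member. It reached 1 TPM in 4 libraries only, at 1.96 TPM in TH9 16h control 1, 3.49 TPM in TH9 16h control 2, 2.88 TPM in TH1 48h cGAMP 1 and 2.88 TPM in TH9 48h cGAMP 2, and was listed at 0 in 10. All 4 also held Il4 and Il13 at or above 1 TPM. In 3 libraries, TH9 16h control 1 and 2 and TH1 48h cGAMP 1, all 5 members were at or above 1 TPM. The gap between Il4 and Il5 was unequal among these, at 55.5 against 3.49 TPM in TH9 16h control 2 and 3.57 against 1.96 TPM in TH9 16h control 1.

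**Figure D1:**
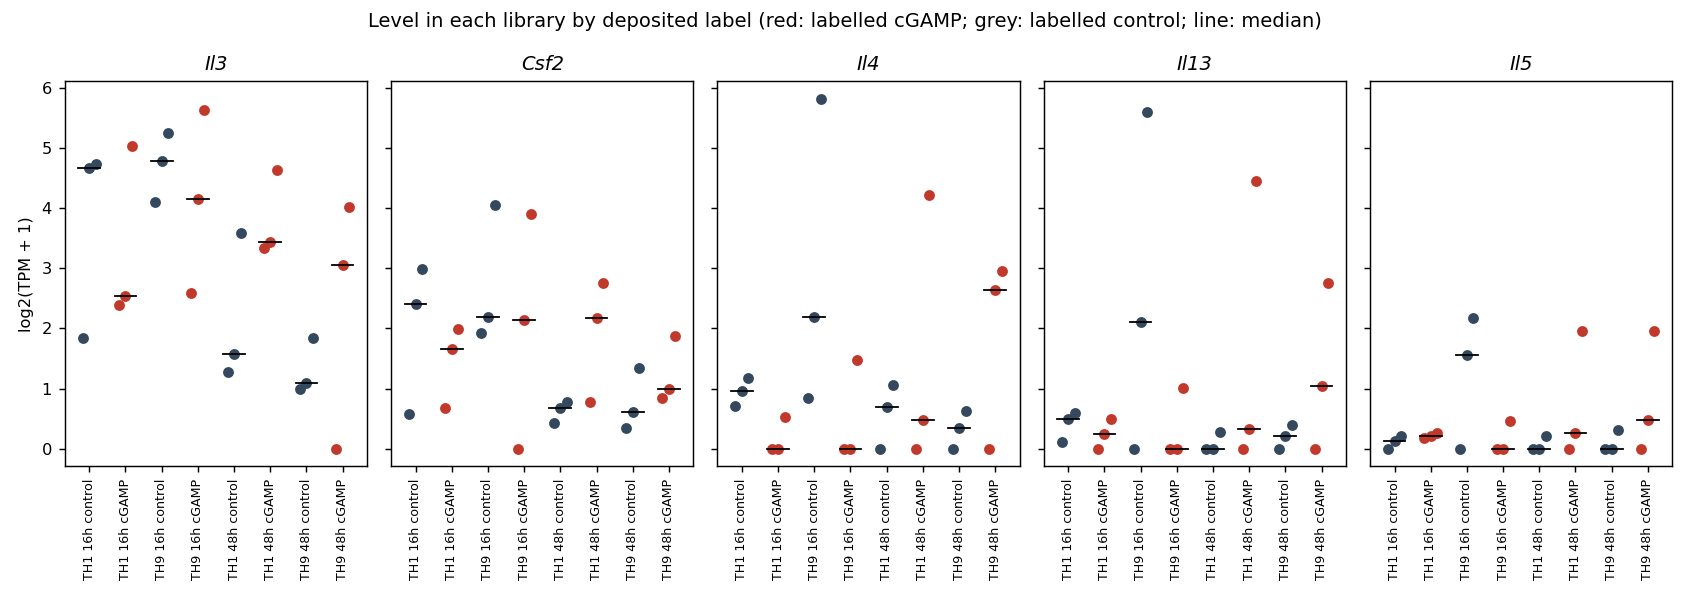
Level of each member, as log2(TPM + 1) on the y axis, in the 3 libraries (points) of each deposited label, with the median of the label as a line; red points are labelled cGAMP and grey points control. Il3 reached 1 TPM in 22 of 24 libraries, whereas Il4, Il13 and Il5 stayed near 0 except in 8, 6 and 4 libraries.

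The libraries with TH2-type transcripts were those with the most Il9. All 6 libraries with Il13 at 1 TPM had more Il9 than Tbx21, and they were the 6 highest of the 24 for Il9, at 138 TPM in TH9 16h control 1, 1136 TPM in TH9 16h control 2, 152 TPM in TH9 16h cGAMP 3, 496 TPM in TH1 48h cGAMP 1, 239 TPM in TH9 48h cGAMP 2 and 298 TPM in TH9 48h cGAMP 3. They were also all within the 7 highest for Gata3, the TH2 master regulator, at 28.1 to 66.1 TPM. A library with as much Gata3, TH9 16h cGAMP 2, held 47.5 TPM of Gata3 and 11.5 TPM of Il9 and was listed at 0 for Il4, Il5, Il13 and Csf2. Of the libraries in which members reached 1 TPM, those with Il9 above Tbx21 numbered 5 of 8 for Il4, 4 of 4 for Il5, 6 of 6 for Il13, 10 of 22 for Il3 and 5 of 13 for Csf2. TH1 48h cGAMP 1 was labelled TH1 yet held 496 TPM of Il9 and 0.252 TPM of Tbx21, and all values under its label include it.

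**Figure D2:**
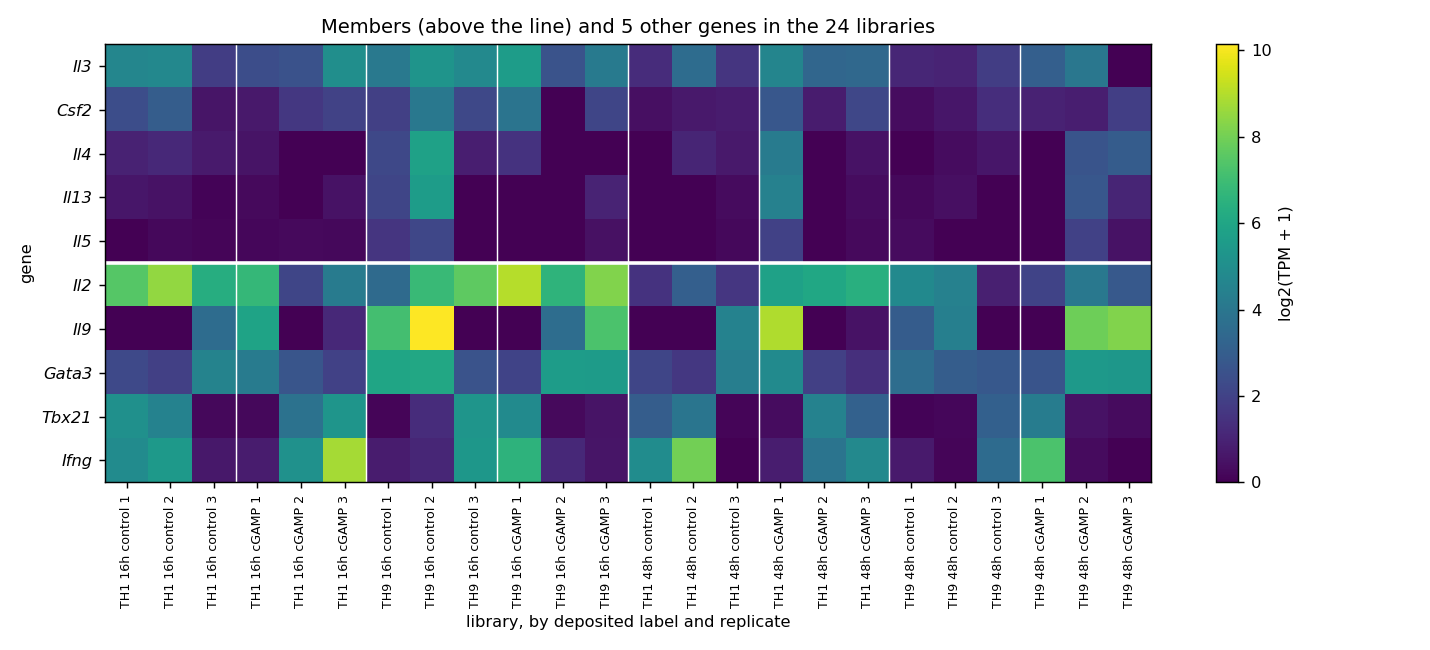
Level of the 5 members (above the white line) and of Il2, Il9, Gata3, Tbx21 and Ifng as log2(TPM + 1), shown by colour, in the 24 libraries ordered by deposited label and replicate (x axis). In each label 1 of 3 libraries carries the Il9 and Tbx21 pattern of the other subset, and the 6 libraries with Il13 at 1 TPM are the 6 highest for Il9.

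Because libraries fell into 2 separate sets by Il9 and Tbx21, relations between transcripts were computed within each set of 12, on log2(TPM + 1), with Pearson's r and Spearman's rho. Over all 24 libraries they were computed only among Il3, Csf2 and Il2, whose levels did not separate the sets. In all, 73 relations were computed, p-values came from two-sided permutation tests with 100000 permutations and were adjusted over the 73, and 15 passed an adjusted p of 0.05 by both measures. The libraries share experiments, labels and a fixed TPM total, so that the points are not fully independent, and the sets were themselves defined by Il9 and Tbx21. The permutations did not hold time or cGAMP fixed, so a difference by either may enter any of these relations, which was not tested. Values are also given without the 2 libraries farthest from the median of the first-named gene.

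Among the 12 libraries with Il9 above Tbx21, the TH2-type transcripts varied together. Il4 and Il13 had r = 0.93 and rho = 0.77 (permutation test, adjusted p = 0.0017 for r and 0.0279 for rho), and r = 0.76 (adjusted p = 0.0685) without TH9 16h control 2 and TH1 48h cGAMP 1, so that the relation passed the threshold only with those 2 libraries. Il5 and Il13 had r = 0.94 and rho = 0.89 (permutation test, adjusted p = 0.00073 and 0.00307, the former the smallest that the permutations allow), and r = 0.95 (adjusted p = 0.0062) without the 2 farthest libraries, where rho no longer passed (0.81). Il4 and Il5 had r = 0.86 and rho = 0.73 (adjusted p = 0.00706 and 0.0447), and 0.72 without them (adjusted p = 0.117). Il13 was related to Il9 with r = 0.86 and rho = 0.91 (permutation test, adjusted p = 0.00164 and 0.00274), and 0.78 without the 2 farthest libraries (adjusted p = 0.0376). Csf2 behaved likewise towards Il9 (r = 0.88 and rho = 0.92, adjusted p = 0.00164 and 0.00274, and 0.80 without them, adjusted p = 0.0401). Csf2 and Il13, whose genes lie 615 kb apart, had r = 0.87 and rho = 0.91 (adjusted p = 0.00611 and 0.00274), but r = 0.53 (adjusted p = 0.262) without TH9 16h control 2 and TH1 48h cGAMP 1. Il3 with Csf2 in this set had r = 0.64 and rho = 0.65 (permutation test, adjusted p = 0.0647 and 0.0941), and did not pass. Il4, Il5 and Il13 with Gata3 had r of 0.52, 0.58 and 0.52, none past the threshold. With the upper quartile of each library set equal, Il4 with Gata3 did pass (r = 0.79, rho = 0.91, adjusted p = 0.0145 for r), as did Il4 with Csf2 (r = 0.87, against r = 0.84 and rho = 0.68 as deposited), while Il4 with Il5 (r = 0.82), Il5 with Il9 (r = 0.73) and Il5 with Csf2 (r = 0.61) no longer passed by both measures.

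Among the 12 libraries with Tbx21 above Il9, in which Il4 stayed at or below 1.78 TPM and Il5 and Il13 below 1 TPM, the relations that passed involved Il3 and Csf2. Il3 was related to Tbx21 (r = 0.86, rho = 0.86, permutation test, adjusted p = 0.00532 and 0.00864) and to Il2, the T cell growth factor induced by T-cell receptor signals (r = 0.84, rho = 0.84, adjusted p = 0.00706 and 0.0115). Csf2 was related to Il2 (r = 0.79, rho = 0.83, adjusted p = 0.0123 and 0.0122) and to Il3 (r = 0.78, rho = 0.73, adjusted p = 0.0138 and 0.0435). Without TH1 48h control 1 and TH9 16h cGAMP 1, the lowest and the highest, r was 0.84 for Il3 with Tbx21 (adjusted p = 0.0376), 0.77 for Il3 with Il2 (adjusted p = 0.0614), 0.68 for Csf2 with Il2 (adjusted p = 0.12) and 0.60 for Il3 with Csf2 (adjusted p = 0.211), so that 3 of these 4 no longer passed. With the upper quartile of each library set equal, Il3 with Tbx21 (r = 0.78), Csf2 with Il2 (r = 0.70) and Il3 with Csf2 (r = 0.73) no longer passed by both measures. Whether any relation differed between the 2 sets of libraries was not tested.

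Over all 24 libraries Il3 and Csf2 had r = 0.71 and rho = 0.78 (permutation test, adjusted p = 0.00164 and 0.00146), and r = 0.81 (adjusted p = 0.00073) without TH9 48h cGAMP 3 and TH9 48h control 2, the 2 lowest for Il3. Il3 and Il2 had r = 0.59 and rho = 0.61 (adjusted p = 0.0129 and 0.0123), and r = 0.49 (adjusted p = 0.0514), which did not pass, with the upper quartile of each library set equal. Csf2 and Il2 had r = 0.50 and rho = 0.48 (permutation test, adjusted p = 0.047 and 0.074) and did not pass by both measures. Il3 and Csf2 were each related to Il2 in the set with more Tbx21, as given above, and in the other set Il3 and Il2 had r = 0.47 and rho = 0.55 (permutation test, adjusted p = 0.224 and 0.155) and Csf2 and Il2 r = 0.21 and rho = 0.10 (permutation test, adjusted p = 0.644 and 0.874), neither past the threshold.

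**Figure D3:**
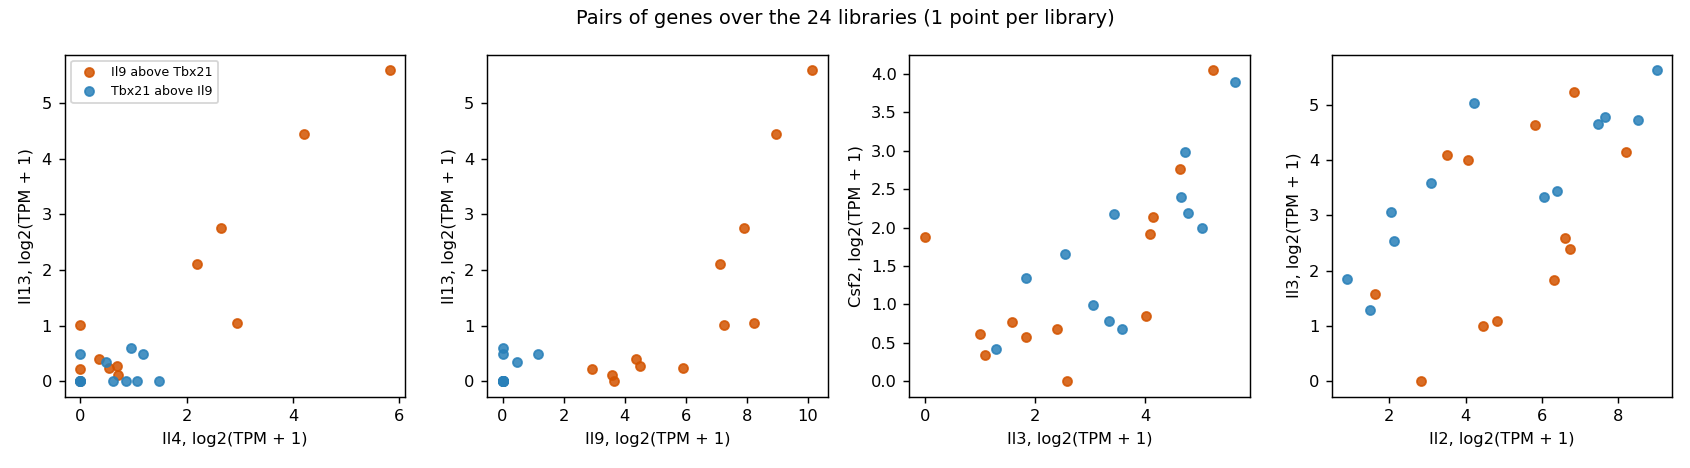
Levels of 4 pairs of genes as log2(TPM + 1) on both axes, 1 point per library, orange where Il9 was above Tbx21 and blue where Tbx21 was above Il9 (12 libraries each). Il13 is near 0 in all blue points and follows Il4 and Il9 in the orange points (r = 0.93 and 0.86), and Il3 and Csf2 are spread over both sets (r = 0.71 over 24 libraries).

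The genes with the pattern most like each member were found by Spearman's rho over the 24 libraries among all 15720 genes tested, with predicted genes passed over, and are given as a description. Il3 was most like Icam1, the adhesion molecule (rho = 0.91, 3.83 to 39.3 TPM), Plaur, the urokinase receptor (rho = 0.88), and Tap2, a subunit of the peptide transporter of antigen presentation (rho = 0.87). Csf2 was most like Scin, an actin-severing protein (rho = 0.80), Adap1 (rho = 0.80) and Parp10 (rho = 0.80). Il5 was most like Il31, another cytokine of TH2 cells (rho = 0.81, 0 to 3.35 TPM), Efna5 (rho = 0.77) and Il9 (rho = 0.76). Il13 was most like Il9 (rho = 0.77), Slc15a3 (rho = 0.72) and Rai14 (rho = 0.71). Il4 had the lowest of these values, with Cttn, the actin regulator cortactin (rho = 0.71), Sowahc (rho = 0.67) and Ciart (rho = 0.66). Many of the libraries are tied at 0 for Il4, Il5 and Il13, which limits their rho.

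Genes between and around the members had their own patterns. Rad50, the DNA repair gene that lies between Il13 and Il5 and whose introns hold the TH2 locus control region in mice, was at 5.32 to 75.0 TPM and reached 1 TPM in all 24 libraries. Its log2 spread within labels (SD 0.53) was below those of Il4 (1.41) and Il13 (1.44). Irf1, an interferon-induced factor next to Il5, was at 8.12 to 209 TPM. Kif3a, which adjoins Il4 on its other side, was at 0.698 to 13.7 TPM. In GENCODE the predicted gene Gm12214 overlaps Il5 on the other strand and Gm12223 overlaps Csf2. The library kit keeps the strand, but whether the quantification used it is not given in the sources used here, so the levels of Il5 and Csf2 may include their reads.

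**Figure D4:**
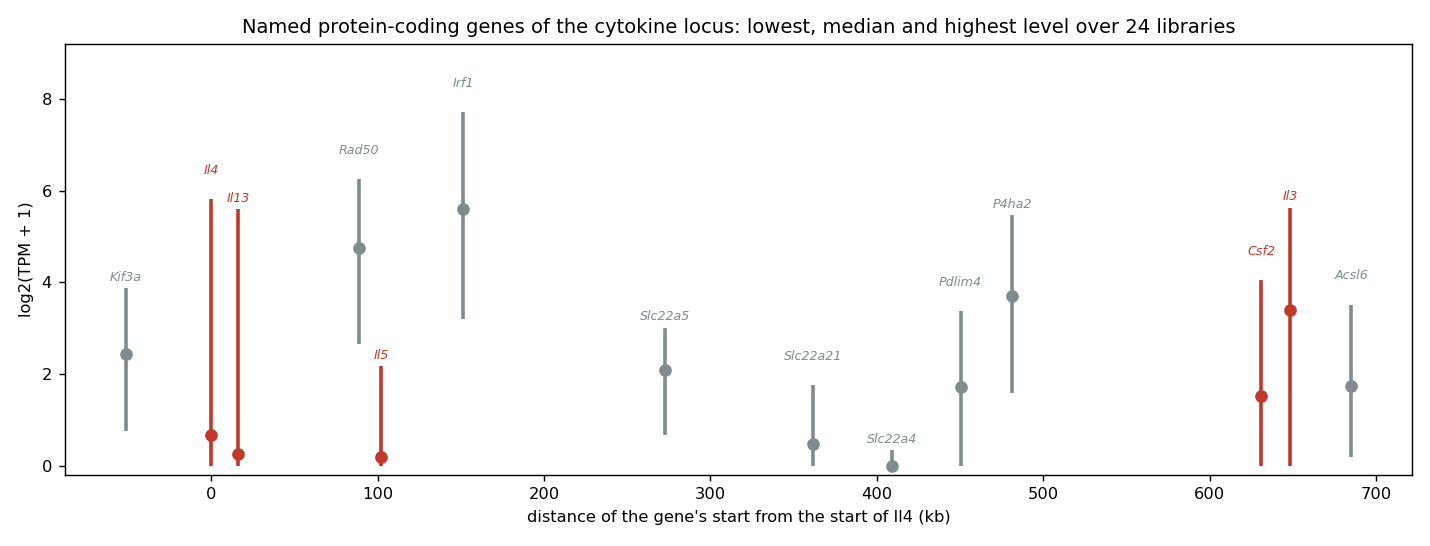
Level as log2(TPM + 1) (y axis) of named protein-coding genes of the locus against the distance of each gene's start from that of Il4 in kb (x axis), with the lowest, median (point) and highest of 24 libraries; members are red. Il4 and Il13 range from 0 to 55.5 and 47.3 TPM, while Rad50, between Il13 and Il5, is at 5.32 TPM or more in every library.

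The receptors for these cytokines divided by chain. Il4ra, the chain that binds IL-4 and takes part in the IL-13 receptor, was at 11.8 to 235 TPM, and Il2rg, the common gamma chain, at 19.3 to 254 TPM. The chains for IL-3, IL-5 and GM-CSF were low, with Il3ra at 0 to 5.03 TPM, Csf2ra at 0 to 3.51 TPM, Il5ra at 0.459 to 3.34 TPM and Csf2rb, the common beta chain, at 0 to 1.15 TPM. Il13ra1, which pairs with Il4ra to bind IL-13, had a median of 0.0635 TPM and Il13ra2 was below 1 TPM throughout. In TH9 16h control 2, the library with the most Il4, several factors of the TH2 locus also had their highest level, among them Gata3 (66.1 TPM), Stat6 (102 TPM), Junb (430 TPM), Batf (291 TPM), Irf4 (667 TPM) and Gfi1 (52.1 TPM).

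Basophils and mast cells, which also make IL-4 and IL-13, were looked for by their markers. The 8 markers summed to 0.344 to 6.16 TPM per library; the chymase gene Cma1 was at 0 in all 24, Fcer1a, the IgE receptor alpha chain, in 23, and Mcpt8, a basophil protease, in 20. Ms4a2, the IgE receptor beta chain, was above 0 in every library (0.181 to 3.20 TPM), and Kit, the stem cell factor receptor, in all but 1 (up to 3.16 TPM). In TH9 16h control 2 these markers summed to 0.853 TPM against 55.5 TPM of Il4. Myeloid markers, which include Lyz2 (0 in 23 libraries) and S100a8 (0 in all 24), summed to 0.203 to 4.71 TPM.

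The design asks whether cGAMP changed these transcripts within each subset and time, and whether they differed between the control libraries of the subsets. Log2 fold changes are differences of the label means on the log2(TPM + 1) scale, which understates the change of low genes, and were tested in 1 limma fit of all 24 libraries over the 15720 genes that reached 1 TPM in 3 libraries or more, two-sided, with Benjamini-Hochberg adjustment. All 5 members passed that filter. With all 24 libraries, none of the 5 passed an adjusted p of 0.05 in any of the 6 comparisons, where the share of all genes that passed was 0.00636% (1 gene) for cGAMP against control in TH1 16h and 0% in the other 5. The study, with a count-based test, reported genes induced by interferon as markedly higher with cGAMP in both subsets at both times. The few calls by deposited label are therefore not a measure of the response to cGAMP, and the reason for the gap was not tested. Within labels the members varied more than most genes: the SD was 1.34 for Il3, 1.41 for Il4, 1.44 for Il13 and 1.05 for Csf2 on the log2 scale, above 93.1% to 97.5% of genes tested, and 0.67 for Il5. Each label holds libraries with both subset markers, so this SD does not measure the spread of replicates alone. Whether the labels' conflict with the subset markers is part of this spread was not tested. The values without the 8 libraries whose marker went against their label follow the comparisons.

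Under the labels TH9 and 16h, Il4, Il13 and Il5 had a lower mean in libraries labelled cGAMP than in those labelled control. Since these labels were not checked, this cannot be read as a fall with cGAMP. Il4 was at 3.57, 55.5 and 0.805 TPM in the control and 0, 0 and 1.78 TPM in the cGAMP libraries, a log2 difference of -2.46 ± 1.00 (SE, n = 3 against 3, limma adjusted p = 0.506). Il13 was at 3.32, 47.3 and 0 against 0, 0 and 1.02 TPM (-2.23 ± 1.02, adjusted p = 0.57), and Il5 at 1.96, 3.49 and 0 against 0, 0 and 0.383 TPM (-1.09 ± 0.51, adjusted p = 0.58). Values overlapped between the labels for all 3 genes, since TH9 16h control 3 was low and was 1 of the libraries with Tbx21 above Il9. At an unadjusted p of 0.05, 3 of 5 members passed, against 8.37% of all genes. Without TH9 16h control 2 the difference was -1.03 for Il4, -0.72 for Il13 and -0.63 for Il5, and without TH9 16h control 3 it was -3.51, -3.52 and -1.71. Il3 (-0.59 ± 0.96) and Csf2 (-0.71 ± 0.77) were within their error, and both turned positive, to 0.18 and 0.30, without TH9 16h cGAMP 2. No member had separate groups here, against 14.8% of all genes.

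At 16 hours under the label TH1, Il4 was at 0.940, 1.25 and 0.642 TPM in the control and 0.451, 0 and 0 TPM in the cGAMP libraries. The groups did not overlap for this 1 of 5 members, against 12.8% of all genes, and the log2 difference was -0.77 ± 1.00 (limma adjusted p = 0.87). Il3 (-0.42 ± 0.96), Csf2 (-0.54 ± 0.77), Il13 (-0.16 ± 1.02) and Il5 (0.10 ± 0.51) were within their error. The Il3 difference turned positive, to at most 0.071, when any of 3 libraries (TH1 16h control 1, TH1 16h control 2 or TH1 16h cGAMP 1) was left out. None of the 5 passed an unadjusted p of 0.05, against 8.16% of all genes.

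Under the label 48h all 5 members had a higher mean in libraries labelled cGAMP than in those labelled control, under both subset labels. None passed, and with the labels unchecked this cannot be read as a rise with cGAMP. Under TH1, Csf2 was at 5.77, 0.724 and 3.53 TPM with cGAMP and 0.342, 0.605 and 0.711 TPM with control, a difference of 1.28 ± 0.77 (limma adjusted p = 0.953) with no overlap, as for 8.53% of all genes. The differences of the others under TH1 were 1.65 ± 0.96 for Il3, 1.5 ± 1.02 for Il13, 0.98 ± 1.00 for Il4 and 0.67 ± 0.51 for Il5, with adjusted p of 0.953 to 0.954. Those of Il4, Il13 and Il5 rested on TH1 48h cGAMP 1, the library labelled TH1 with 496 TPM of Il9, and without it they were -0.35, 0.076 and 0.059. Under TH9, the differences were 1.54 ± 1.00 for Il4, 1.06 ± 1.02 for Il13, 1.05 ± 0.96 for Il3, 0.71 ± 0.51 for Il5 and 0.47 ± 0.77 for Csf2, with adjusted p of 0.497 to 0.751, while the median of all genes was itself 0.50. With the upper quartile of each library set equal that median was -0.08 and the differences were 1.26 for Il4, 0.77 for Il13, 0.46 for Il3, 0.64 for Il5 and 0.083 for Csf2. Without TH9 48h cGAMP 2 the differences were 0.22 for Il3, 0.14 for Il5 and 0.32 for Il13. Without TH9 48h cGAMP 3 that of Il3 was 2.23, that of Il4 1.00 and that of Csf2 0.15, and without TH9 48h cGAMP 1, which had Tbx21 above Il9, that of Il4 was 2.47. Il4 was at 0, 5.23 and 6.72 TPM in these cGAMP libraries and at 0, 0.272 and 0.543 TPM in the control libraries. At an unadjusted p of 0.05 no member passed at 48 hours, against 4.28% of all genes under TH1 and 9.9% under TH9, and under TH9 no member had separate groups, against 13.4%.

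Under the label TH9 the mean differences between the cGAMP and control labels were below 0 under the label 16h and above 0 under 48h. The change between these time labels passed for no member. That change, label 48h minus label 16h, was 4.0 ± 1.41 for Il4, 3.29 ± 1.44 for Il13 and 1.80 ± 0.71 for Il5 on the log2 scale (SE, n = 3 in each of 4 labels). None passed adjustment over all genes (limma, adjusted p = 0.186, 0.257 and 0.228). For the same differences by cGAMP label, TH9 minus TH1, the largest values were -2.07 ± 1.44 for Il13 and -1.69 ± 1.41 for Il4 under the label 16h. No member passed under either time label (limma, adjusted p from 0.572 to 0.988).

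In control libraries at 16 hours all 5 members had a higher mean under TH9 than under TH1, with differences of 2.17 ± 1.02 for Il13, 2.01 ± 1.00 for Il4 and 1.13 ± 0.51 for Il5 (limma adjusted p = 0.799 for each), and 0.96 ± 0.96 for Il3 and 0.73 ± 0.77 for Csf2. Il13 and Il5 passed an unadjusted p of 0.05, 2 of 5 against 5.87% of all genes, and no member had separate groups, against 11.3%. The TH9 libraries with TH2-type transcripts were control 1 and control 2. Without TH9 16h control 2 the differences fell to 0.65 for Il13, 0.57 for Il4 and 0.67 for Il5. Without TH1 16h control 3, which had Il9 above Tbx21, they were 0.012 for Il3 and 0.026 for Csf2. The median of all genes was 0.31 here and -0.23 with the upper quartile of each library set equal, where Il3 was at 0.32 and Csf2 at 0.26. These values share the TH9 16h control libraries with the cGAMP comparison above. At 48 hours the differences ran from -0.84 ± 0.96 for Il3 to 0.14 ± 0.77 for Csf2, with no member past an unadjusted p of 0.05 (5.53% of all genes) and none with separate groups (6.35%).

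Without the 8 libraries whose subset marker went against their label, 16 libraries remained, and some calls changed. Under the labels TH9 16h control and TH9 16h cGAMP, Il4 was at 3.57 and 55.5 TPM in the control and 0 and 0 TPM in the cGAMP libraries, a log2 difference of -4.01 ± 0.77 (SE, n = 2 against 2, limma adjusted p = 0.0141). Il13 was at 3.32 and 47.3 against 0 and 1.02 TPM (-3.35 ± 0.80, adjusted p = 0.0479), and Il5 at -1.63 ± 0.46 (adjusted p = 0.107), so that 2 of 5 members passed, against 1.39% of all genes. In control libraries at 16 hours Il13 was 3.31 ± 0.80 higher under TH9 than TH1 (adjusted p = 0.0442), 1 of 5 members against 1.79% of all genes, while Il4 (2.94 ± 0.77) and Il5 (1.76 ± 0.46) had an adjusted p of 0.066. The Il13 calls were narrow: they were lost (adjusted p = 0.0569 and 0.0529) when 5 genes at 0 in all 16 libraries were kept in the fit, whereas that of Il4 was not (0.0166). With cGAMP in TH9 48h Il4 was at 2.62 ± 0.77 (adjusted p = 0.0868), and in TH1 48h at -0.29 ± 0.77. No member passed in the other 4 comparisons, where the share of all genes that passed was 1.34% (cGAMP, TH1 16h), 0.655% (cGAMP, TH1 48h), 1.95% (cGAMP, TH9 48h) and 2.41% (subset, 48h). The 8 libraries were chosen on Il9 and Tbx21 with the values seen, and Il4 and Il13 varied with Il9 among libraries, so these p-values are not independent of that choice. The labels for cGAMP and time of the remaining libraries were not checked. These calls therefore cannot be read as effects of cGAMP or as differences at 16 hours.

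**Figure D5:**
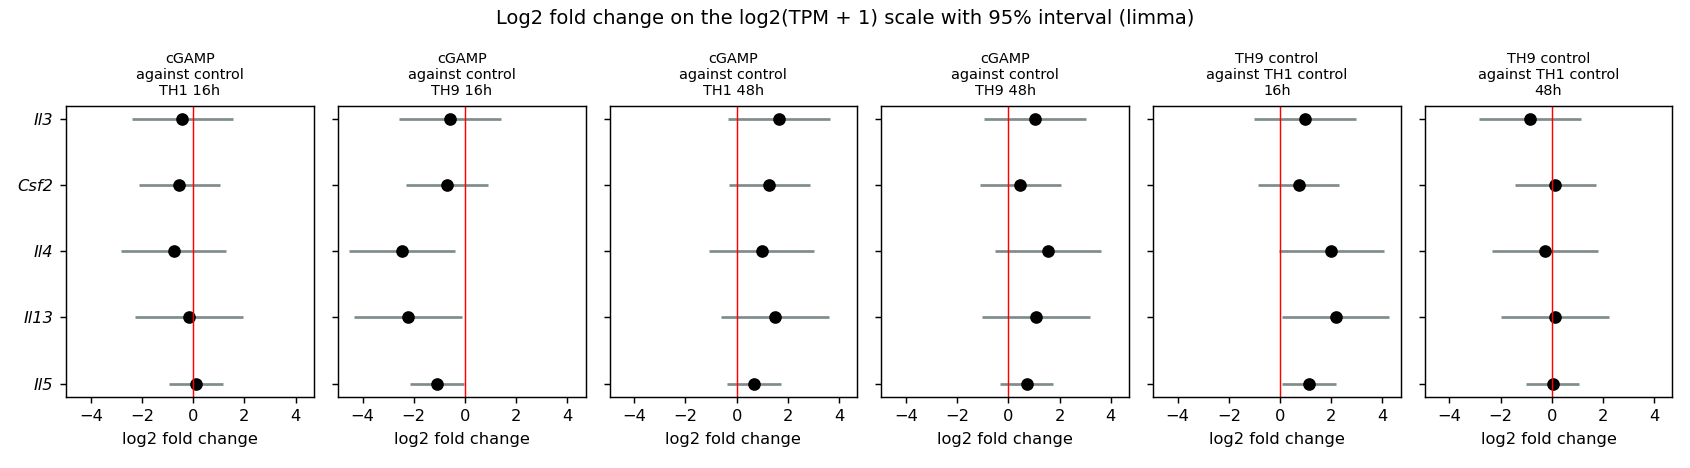
Log2 fold change of each member on the log2(TPM + 1) scale (x axis), as the limma estimate (point) with its 95% interval (line), in the 6 comparisons by deposited label. The intervals of Il4, Il13 and Il5 lie below 0 for the label cGAMP against control in TH9 16h, which was not checked to be an effect of cGAMP. No adjusted p passed 0.05 in any comparison with all 24 libraries.

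The other genes of the pathway, taken from lists, gave no call in either direction in any comparison. Of 15 transcription factors of the TH2 locus tested, 0 passed an adjusted p of 0.05 by limma; at an unadjusted p of 0.05, 4 were higher under TH9 than TH1 in the control libraries at 16 hours, against 5.87% of all genes in either direction, and there the list's median was 0.78 against 0.31 for all genes. Junb, an AP-1 subunit, was at 2.06 ± 0.79 in that comparison (adjusted p = 0.799), and Batf, an AP-1 factor needed by TH9 cells, was at 2.13 ± 0.67 for cGAMP in TH9 48h (adjusted p = 0.487). Of 13 genes of signaling downstream of the common beta chain and of IL-4, 0 were called and 5 were higher at an unadjusted p of 0.05 in the same comparison of control libraries (5.87% of all genes, list median 1.16), among them the feedback inhibitors Socs1 (1.35 ± 0.51) and Socs2 (1.77 ± 0.69), both with an adjusted p of 0.799. Of 7 receptor genes tested, 0 were called and 3 were higher with cGAMP in TH1 16h at an unadjusted p of 0.05 (8.16% of all genes), including Il13ra1 (1.26 ± 0.43, adjusted p = 0.596) and Csf2rb2 (0.72 ± 0.32, adjusted p = 0.60). Of 10 neighbours in the locus tested, 0 were called, P4ha2, a collagen hydroxylase gene, was at -2.22 ± 0.71 with cGAMP in TH9 16h (adjusted p = 0.362) and Kif3a, a kinesin motor gene, at 1.56 ± 0.52 with cGAMP in TH9 48h (adjusted p = 0.487). Of 16 early activation genes 0 were called, and Il2 was at 4.03 ± 1.11 with cGAMP in TH1 48h (limma adjusted p = 0.953). It was at 1.79, 7.49 and 2.08 TPM in libraries labelled control and 55.7, 65.7 and 82.9 TPM in those labelled cGAMP. The groups did not overlap, as for 8.53% of all genes in that comparison. Since the labels for cGAMP and time were not checked, this cannot be read as a rise with cGAMP. The lists of T cell subset and identity markers also gave no call in any of the 6 comparisons: of 6 TH2 markers tested, 0 passed even an unadjusted p of 0.05, and the TH9 markers had 2 of 5 lower with cGAMP in TH9 16h (8.37% of all genes), 2 of 5 higher in TH9 48h (9.9%) and 2 of 5 higher in the comparison of control libraries at 16 hours (5.87%), at that p. Among markers of other cells, B cell genes summed to 5.75 to 117 TPM and CD8 T and NK cell genes to 1.78 to 74.2 TPM per library. With cGAMP in TH1 16h, the immunoglobulin gene Ighm was at -1.70 ± 0.68 and the cytotoxic granule gene Nkg7 at 2.10 ± 0.92 (adjusted p = 0.596 and 0.60), and their part in the members' values was not tested.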

How the data were processed

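RNA from 24 cultures was extracted with Trizol and made into ribosomal RNA-depleted, stranded total RNA libraries. Per the labels, the authors trimmed reads with Trimmomatic and quantified them with kallisto on mm10, in versions and with an annotation not given in the sources used here. Each deposited file holds TPM for 35492 symbols with a fixed total, so sequencing depth is unknown and no count test was run. Libraries were grouped by the submitters' titles only. The 5 members, the gene lists and the tests were chosen with earlier results of these data known.

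Values were transformed to log2(TPM + 1). Genes at 1 TPM or more in at least 3 libraries (15720) were tested with limma 3.58.1 (R 4.3.3) in 1 model of all 24 libraries with 8 label means, 16 residual degrees of freedom and an intensity trend. The same procedure was tested on simulated data with a much smaller spread than these libraries have and with changes only in well-expressed genes. That test does not show what could be found for genes as variable as the members. Named genes are the members, Il9, Ifng, Tbx21, Gata3 and Il2, the 3 genes with the highest Spearman rho for each member (predicted genes passed over), and up to 2 genes of each list with the smallest p; genes of these lists given only by their levels were picked after their values were seen. Relations had been planned over all 24 libraries; since the libraries proved to fall into separate sets by Il9 and Tbx21, they were computed within these sets (Python 3.11.15, scipy 1.17.1), a choice made after seeing the data. Alternatives were other pseudocounts, filters, scalings and samples in the fit, the replicate number as a block, and leaving out each library. Leaving out the 8 libraries whose Il9 and Tbx21 went against their subset label was added after seeing the data. Same-numbered libraries did not deviate together (r over 0.1 in 2 of 18 pairs, range -0.291 to 0.164), and the numbers were not taken to pair them. Deviations were taken from the means of labels that mix both subset markers, so they cannot tell whether libraries of 1 experiment pair. Promoter windows are RefSeq's (GRCm38.p6); all 5 members had a window.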

Additional observations from a re-analysis of the deposited data

How the results depend on the processing

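With all labels kept as they were and at most 1 library left out, no member was called in any of the 6 comparisons, and under 7 alternatives every member's log2 difference kept its sign in all 30 cases; requiring a mean of 2 TPM kept the sign in 24 and left Il5 untested. Scaling by upper quartile moved the median of all genes, by most for cGAMP in TH9 48h, from 0.50 to -0.08. Leaving out 1 library reversed 10 of 180 values. The range was -1.37 to 0.071 for Il3 with cGAMP in TH1 16h, -1.35 to 0.18 for Il3 and -1.65 to 0.30 for Csf2 with cGAMP in TH9 16h, and -0.35 to 1.76 for Il4 with cGAMP in TH1 48h. For TH9 against TH1 control at 48 hours it was -0.071 to 0.10 for Il5 and -0.15 to 0.35 for Csf2. Leaving out the 8 libraries against their subset marker, an alternative chosen after seeing the data, called 2 members with cGAMP in TH9 16h (1 with genes at 0 in the remaining libraries kept) and 1 in TH9 against TH1 control at 16 hours (0 with them kept). It reversed Il4 with cGAMP in TH1 48h (-0.29), and in TH9 against TH1 control Il3 at 16 hours (-0.028) and Csf2 at 48 hours (-0.074). All genes called rose to 210 (207 with them kept) and 219 (200) with cGAMP in TH1 and TH9 16h, 103 (98) and 307 (296) in TH1 and TH9 48h, and 282 (269) and 379 (359) for TH9 against TH1 control at 16 and 48 hours.

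The number of genes called with cGAMP in TH1 16h was 1, and became 0 with a pseudocount of 0.1, a mean of 2 TPM, only the libraries compared or the replicate block, 2 with a pseudocount of 10, 37 with no filter and 0 to 9 without 1 library (9 without TH1 16h cGAMP 1). From 0 in TH9 16h it became 1 with a pseudocount of 10 or only the libraries compared, and 0 to 24 without 1 library (24 without TH9 16h control 3, 6 without control 2 and 5 without cGAMP 2). From 0 in TH1 48h it became 1 with a pseudocount of 0.1, only the libraries compared or the 20 most abundant symbols left out, and 0 to 2 without 1 library. From 0 in TH9 48h it became 6 with no filter, 3 with only the libraries compared and 0 to 2 without 1 library. For TH9 against TH1 control it became 0 to 4 without 1 library at 16 hours, and at 48 hours 1 with no filter or without the 20 most abundant symbols, 4 with only the libraries compared and 0 to 2 without 1 library. The cause was not tested. The replicate block changed no other call.

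Of the 15 relations that passed, 8 also passed with upper quartile scaling, where 10 passed in all, and 5 also passed without the 2 farthest libraries, where 10 libraries remain in a set. Depth is unknown, so what a value near 0 can resolve is too.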
